A study of Mus musculus with 4 samples.

Results

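The alpha and beta tubulins of C8-D1A cells are described here as 10 genes: Tuba1a, Tuba1b, Tuba1c and Tuba4a for alpha tubulin and Tubb2a, Tubb2b, Tubb3, Tubb4b, Tubb5 and Tubb6 for beta tubulin. They were taken by symbol from a table of 24169 genes, and all 10 had a row and passed the filter on low values. The set was selected on the FPKM values of Tubb3, which were lower in treated cells, and the question was whether the other isotypes followed. The difference of Tubb3 between the groups is therefore only described, with no test. C8-D1A is an established mouse astrocyte line, and RNA was sequenced from 2 untreated libraries (control) and 2 libraries of cells kept for 24 h in 1 mM MBP. The series concerns maternal exposure to DBP, dibutyl phthalate, whose main metabolite is monobutyl phthalate, but in the labels the treatment is named MBP and nothing more. No genetic change and no vehicle for the controls is named.

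Alpha and beta tubulin join as a dimer, and the dimers stack into microtubules, the hollow polymers that carry cargo, build the mitotic spindle and shape cell processes. Mammals have several genes for each subunit, called isotypes, which are nearly alike over the body of the protein and differ mostly in a short acidic tail at the carboxyl end. Tubb3 is widely used as a marker of neurons, Tubb5 is the common isotype of most dividing cells, and Tuba1a is prominent in the developing brain. Cells also limit tubulin RNA by autoregulation: when free dimers accumulate, the factor Ttc5 recognises the first residues of a nascent tubulin chain on the ribosome and the RNA is degraded.

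The part of each gene that autoregulation reads is the start of its coding sequence. In the annotated transcripts (GENCODE release M21, GRCm38) all 10 coding sequences began with codons for methionine, arginine and glutamate. The first 30 coding bases of an alpha isotype, the most abundant beta isotype and Tubb3 are shown to compare this start, with the first 4 codons in capitals.
Tuba1b: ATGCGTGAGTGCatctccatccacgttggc
Tubb5: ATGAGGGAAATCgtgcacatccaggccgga
Tubb3: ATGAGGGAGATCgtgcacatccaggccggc

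The isotypes are told apart by the end of the coding sequence, shown next for some of them as its last 60 bases, the stop codon included, with in-frame glutamate codons (GAA or GAG) in capitals. These are the bases that encode the acidic tail, where enzymes add chains of glutamate.
Tuba1c: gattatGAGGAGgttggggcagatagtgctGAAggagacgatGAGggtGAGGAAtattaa
Tuba4a: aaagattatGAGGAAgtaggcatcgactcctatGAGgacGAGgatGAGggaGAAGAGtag
Tubb2a: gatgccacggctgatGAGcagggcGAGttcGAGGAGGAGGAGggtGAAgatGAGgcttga
Tubb2b: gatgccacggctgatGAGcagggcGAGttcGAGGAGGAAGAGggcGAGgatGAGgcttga
Tubb3: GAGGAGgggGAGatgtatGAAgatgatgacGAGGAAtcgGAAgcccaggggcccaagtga
Tubb4b: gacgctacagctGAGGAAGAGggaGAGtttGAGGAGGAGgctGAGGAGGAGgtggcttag
Tubb5: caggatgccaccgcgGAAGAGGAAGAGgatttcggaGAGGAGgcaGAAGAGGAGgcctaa

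Of the 19 codons before the stop, Tubb4b had 10 for glutamate, Tubb5 had 9, and Tubb3 and Tuba4a had 7. Tuba1c had 6. Tubb3 differed from the other beta isotypes shown in that 5 codons followed its last glutamate codon before the stop, the last of them aag, a lysine codon. Tuba1c ended in a tyrosine codon, tat, the residue that is cut off and put back in the tyrosination cycle of microtubules, while Tuba4a ended in GAG.

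How alike the coding sequences were decides how well short reads can be given to 1 gene. Over aligned bases, gaps left out, Tuba1a, Tuba1b and Tuba1c were 97.6% to 98.4% identical and Tubb2a and Tubb2b 96.5%. Tubb3 was nearest to Tubb6, at 86.5%. Windows of 100 bases that also occur exactly in a transcript of another gene made up 65.1% of the Tuba1a transcript, 69.5% of Tuba1b and 53.4% of Tuba1c, mostly shared among those 3 genes and with pseudogenes. The share was 36.9% for Tubb2a and 27.8% for Tubb2b, which share with each other, and 29.2% for Tubb4b, which shares with its pseudogenes. It was 0 for Tubb3, Tubb5, Tubb6 and Tuba4a. How the authors' counting treated reads that fit several genes is not given in the sources used here, so levels of the Tuba1 genes, Tubb2a, Tubb2b and Tubb4b are uncertain, while those of the other 4 do not rest on shared windows of this length. The read length is also not given.

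**Figure D1:**
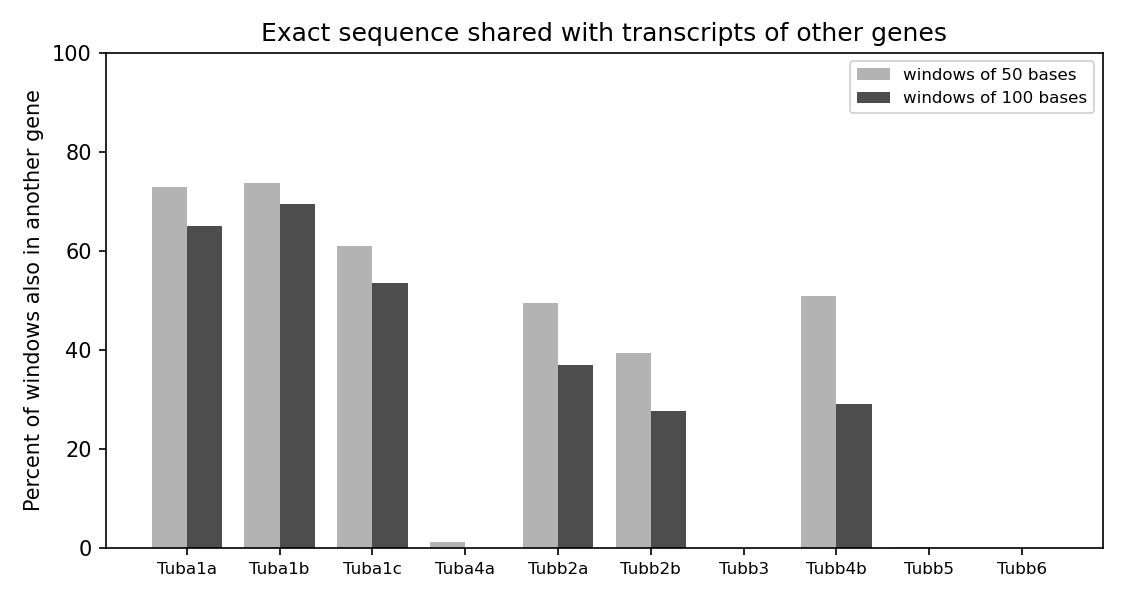
Percent of windows of 50 or 100 bases in each isotype's transcript that occur exactly in a transcript of another gene. The Tuba1 genes stand between 53.4% and 73.8%, while Tubb3 and Tubb6 stand at 0 at both lengths.

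The first question was which isotypes these cells use. Levels are in FPKM, fragments scaled to gene length and to mapped reads as the authors deposited them, which allows genes of different length to be set side by side. Beta tubulin RNA came mainly from Tubb5, which stood at 401 and 447 FPKM in control libraries and at 387 and 389 in MBP libraries (chromosome 17, 35833921 to 35838306, minus strand, GRCm38, as for all positions here). Tubb6, an isotype found in many non-neuronal tissues, followed with 180.0 and 178 FPKM untreated and 177 and 162 in MBP (chromosome 18, 67390717 to 67402748, plus strand). Tubb5 thus made up 55.6% of the summed beta FPKM on average over the 4 libraries and Tubb6 23.9%.

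Tubb4b, a broadly expressed isotype also used in cilia, measured 73.1 and 81.1 FPKM without MBP and 64.4 and 67.2 with it (chromosome 2, 25222160 to 25224702, minus strand). Both MBP libraries lay under both controls. Tuba1b, the leading alpha isotype, had 46.8 and 51.9 FPKM untreated and 44.2 and 48.3 in MBP (chromosome 15, 98931425 to 98934565, minus strand), so its groups overlapped. It made up 45.6% of the summed alpha FPKM. These 4 genes, in the order Tubb5, Tubb6, Tubb4b and Tuba1b, stood apart from each other: the lowest library of each was above the highest of the next.

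Below them lay a group of isotypes whose levels overlapped. Tuba1a, near Tuba1b on chromosome 15 (98949841 to 98953551, minus strand), stood at 30.6 and 28.1 FPKM in control libraries and at 24.7 and 27.7 in MBP libraries. Tubb2b, linked in humans to brain malformation, measured 25.2 and 28.0 FPKM without MBP and 25.0 and 23.5 with it (chromosome 13, 34126748 to 34130466, minus strand). Tubb2a, its neighbour (chromosome 13, 34074274 to 34078007, minus strand), had 26.0 and 26.5 FPKM untreated and 23.4 and 24.8 in MBP. In each of these 3 genes the MBP libraries lay under the controls, narrowly in Tuba1a and Tubb2b. Over the 4 libraries the ranges of these genes and of Tubb3 overlapped, so their order is not settled.

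Tuba4a, whose product lacks an encoded last tyrosine, stood just under this group, with 22.0 and 20.9 FPKM untreated and 19.98 and 19.9 in MBP (chromosome 1, 75214228 to 75219865, minus strand). Its end overlaps Stk16 on the other strand, and whether counting used strand is not given. Tuba1c was the lowest isotype and the one that ran the other way, with 7.89 and 8.39 FPKM untreated and 9.46 and 8.45 in MBP (chromosome 15, 99029891 to 99038105, plus strand). Its upper control and lower MBP library lay close together. When levels were divided by the length of the longest transcript in place of all exons, the 4 leading isotypes and Tuba1c kept their places. Tuba1a moved from place 5 to 8 and Tuba4a from 9 to 6. For Tuba1a the deposited values gave an exon length of 1647 bases, while its longest GENCODE transcript had 1803. Its move, and that of Tuba4a past it, thus also rests on a change of gene model.

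**Figure D2:**
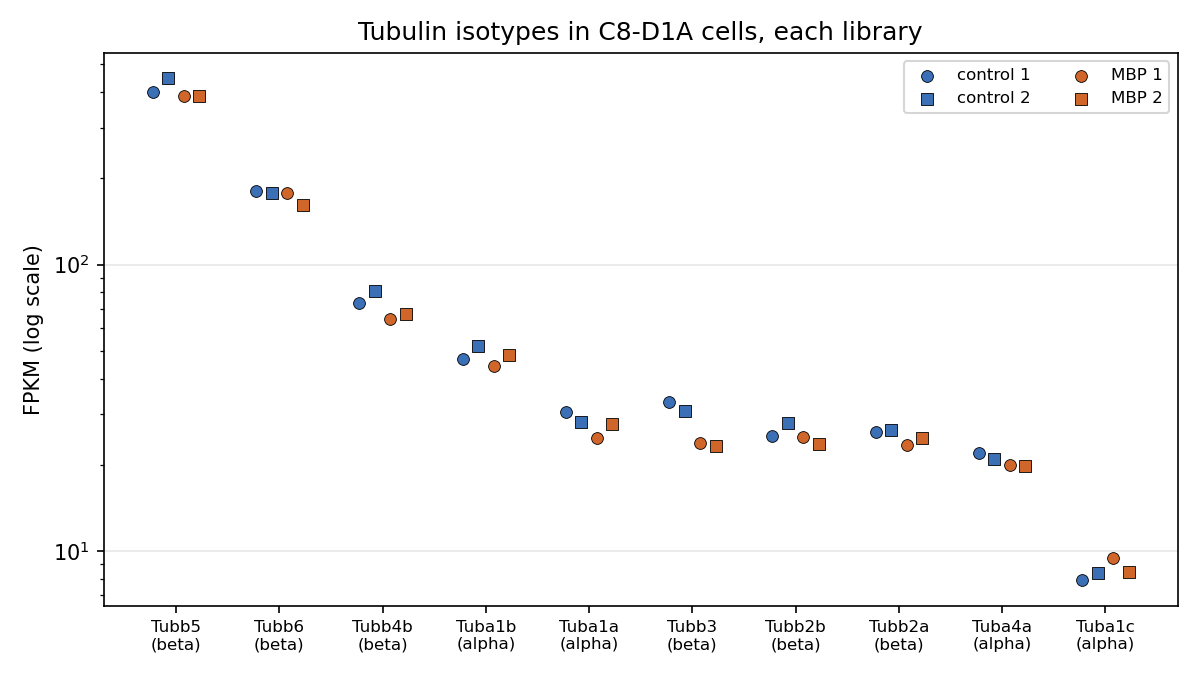
FPKM on a log scale for each isotype in each library, ordered by mean level, with circles and squares for libraries 1 and 2 of a group. Tubb5 lies highest and Tuba1c under 10 FPKM, and the gap between control and MBP points is widest for Tubb3.

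Tubb3 is the gene the set was picked for (chromosome 8, 123411424 to 123422015, plus strand). It stood at 33.2 and 30.8 FPKM in control libraries and at 23.8 and 23.3 in MBP libraries, from 1509 and 1356 reads against 1065 and 1126. Both MBP libraries lay well under both controls, and the group means were 31.99 ± 1.68 and 23.5 ± 0.378 FPKM (SD, n = 2 each), a fold of 0.736. On the scale of log2(FPKM + 1) used for all tests, the difference was -0.43, while the controls differed from each other by 0.10 and the MBP libraries by 0.031. As a share of the summed beta FPKM, Tubb3 stood at 4.49% and 3.89% untreated against 3.40% and 3.38% in MBP. This share was lower in both MBP libraries, but it is computed from the same Tubb3 values that chose the set. It is therefore not a second result beside the lower level.

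Tubb3 was read at these levels in cells that showed few other genes of neurons. Of 11 neuron markers listed for this check, 10 had a row and 3 passed the filter, which asked for at least 1 FPKM in at least 2 libraries. Dcx, Snap25, Syt1, Stmn2, Elavl3, Elavl4 and Syp were each under 0.3 FPKM in every library. Those that passed were Nefm, Nefl and Map2. Nefm, a neurofilament subunit, measured 65.6 and 53.3 FPKM without MBP and 63.7 and 52.6 with it, groups that overlapped. Nefl, another neurofilament subunit, had 3.74 and 3.58 FPKM untreated and 4.01 and 4.47 in MBP, higher in both MBP libraries, with a log2 fold change of 0.17 (limma adjusted p = 0.542). Map2 overlapped between the groups. The summed level of the neuron list, most of it Nefm, was 59.0 to 71.8 FPKM in the controls and 59.6 to 70.1 in MBP.

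The next question was whether the other 9 isotypes followed Tubb3. Of these 9, 8 had a negative log2 fold change, where 51.6% of the 12403 genes tested did. In 7 of 9 the groups did not overlap and MBP was lower, where this held for 23.5% of all genes tested. In 1, Tuba1c, they did not overlap and MBP was higher, where this held for 21.3%. The 7 were the beta isotypes other than Tubb3, Tuba1a and Tuba4a, while Tuba1b overlapped. Whether beta isotypes differed from alpha isotypes in this was not tested. The median log2 fold change of the 9 was -0.12, and that of all genes tested was -0.0048. In bulk RNA, fewer cells of a kind and less RNA per cell cannot be told apart.

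None of the other 9 passed the test. Limma's moderated test, fitted on all genes, called 0 of 12403 (0%) at an adjusted p under 0.05, with 1201 at an unadjusted p under 0.05. Limma-voom on recovered reads gave 18 calls, none of them among these 9. Tubb4b came closest, with a log2 fold change of -0.22 (SE 0.0709, 95% interval -0.41 to -0.043, limma adjusted p = 0.503). Its unadjusted p was 0.0246 in limma, and 5.87% of all genes tested were lower in MBP with an unadjusted p under 0.05. The lower ends of the 95% limma intervals of all 9 lay above -0.43, the value of Tubb3, narrowly for Tubb4b. That value chose the set and has an error of its own, so this does not set Tubb3 apart. A difference between isotypes was not tested.

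The remaining beta isotypes had smaller differences. Tubb2b and Tubb5 both stood at -0.13, with 95% limma intervals of -0.31 to 0.059 and -0.34 to 0.085. Tubb2a stood at -0.12 (-0.27 to 0.023) and Tubb6 at -0.079 (-0.26 to 0.10). For Tubb5 the controls alone differed by 0.16, more than the groups did. Among the alpha isotypes Tuba1a stood at -0.16 (-0.36 to 0.047), Tuba4a at -0.099 (-0.24 to 0.041), Tuba1b at -0.090 (-0.29 to 0.11) and Tuba1c at 0.12 (-0.074 to 0.32). Limma's adjusted p for these 8 lay between 0.535 and 0.696. Each of the 8 moved by over 1.5 times when 1 library was left out. Without control 2, Tubb5 came to -0.047, Tubb2b to -0.054 and Tuba1b to -0.017. Without control 1, Tubb5 stood at -0.21, Tubb2b at -0.20, Tuba1b at -0.16, Tuba1a at -0.098 and Tuba4a at -0.065. Without MBP 1, Tuba1a came to -0.078, Tubb2a to -0.081, Tuba1c to 0.049, Tuba1b to -0.027 and Tubb6 to -0.15. Without MBP 2, Tubb6 came to -0.012, Tuba1a to -0.24, Tuba1b to -0.15 and Tuba1c to 0.19. Among these 9, only for Tubb4b, Tubb2a and Tuba4a was the difference between group means larger than the difference between the libraries of either group, 3 of 9, where 16.6% of all genes tested had this and were lower in MBP.

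**Figure D3:**
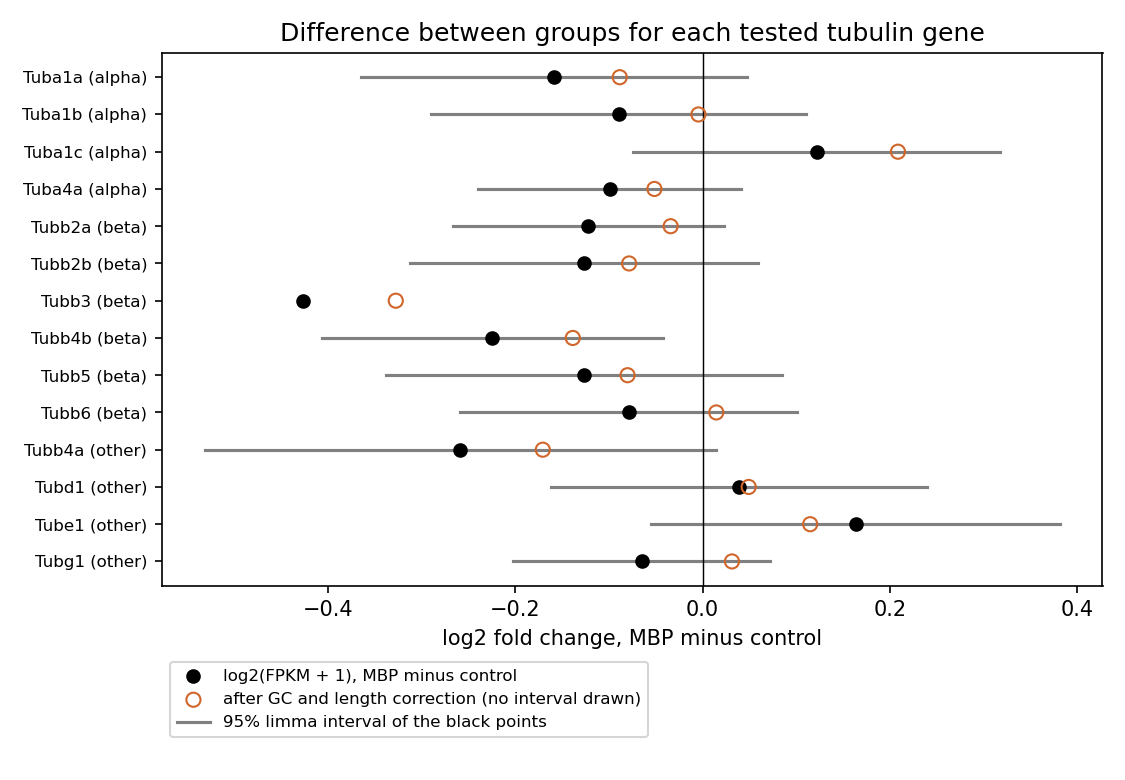
Log2 fold change, MBP minus control, of log2(FPKM + 1) for the 10 isotypes and the 4 other tested tubulin genes (black), with limma's 95% interval, and after correction for GC content and length (open). No interval is drawn for Tubb3, at -0.43, which the set was picked for, and among the intervals drawn that of Tubb4b alone does not reach 0.

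Beside these values stands the base composition of the transcripts. Across all genes, differences between the groups followed the GC content of the transcript, and the tubulins are rich in GC, from 51.2% for Tubb2b to 57.9% for Tubb3. Of the 10, 9 fell among the 3 eighths of genes with the highest GC content, over 51.4%. Of the 4646 genes tested in those eighths, 74.9% had a negative log2 fold change, 40.7% did not overlap and were lower in MBP, and the median log2 fold change was -0.067. After a loess correction of each library for GC content and length, 7 of the 9 isotypes other than Tubb3 were negative, beside 50.3% of all genes. The groups then did not overlap, with MBP lower, in 2 of these 9, Tubb4b and Tubb5, beside 19.5% of all genes. The median of the 9 was then -0.051.

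Tubb3 stood at -0.33 after the correction and Tubb4b at -0.14. Tubb6 turned to 0.015, and Tuba1b came to -0.0044. Tuba1c, the isotype with higher values in MBP, went from 0.12 to 0.21. In Tubb5 the corrected difference was -0.080, in Tuba1a -0.088 and in Tubb2b -0.078. Tuba4a came to -0.051 and Tubb2a to -0.034.

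**Figure D4:**
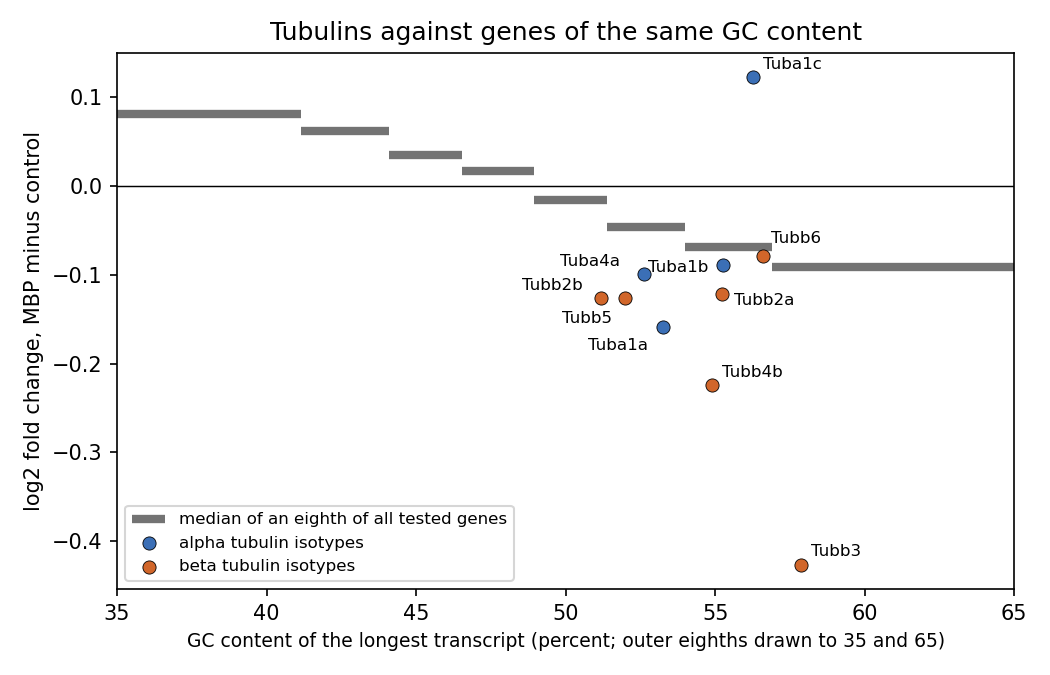
Log2 fold change, MBP minus control, against GC content of the longest transcript for the 10 isotypes, with grey bars for the median of each eighth of all tested genes. The medians run from 0.081 in the lowest eighth to -0.091 in the highest, where Tubb3 lies at -0.43.

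The pools were then compared as sums. The 6 beta isotypes summed to 738 and 791 FPKM untreated and 701 and 689 in MBP, and the 4 alpha isotypes to 107 and 109 against 98.4 and 104. All 10 made 846 and 901 FPKM untreated and 799 and 794 in MBP, a fold of 0.912, with groups that did not overlap. No share over all genes can be set beside a sum. Much of this sum was Tubb5, with a mean of 406 FPKM over the 4 libraries where all 10 had 835. The sums were not corrected for GC content and length. Without Tubb3 the sum was 812 and 869.9 FPKM untreated and 775 and 770.4 in MBP, a fold of 0.919. The alpha sum was 0.145 and 0.138 of the beta sum in the controls and 0.140 and 0.152 in MBP, so that this ratio overlapped between the groups. These are RNA levels, and protein was not measured. With 2 against 2 libraries an exact permutation test cannot give a two-sided p under 0.333, so sums and ratios were not tested.

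The makeup of each pool does not depend on the scale of a library, which all its isotypes share. Tubb5 held 54.3% and 56.5% of the beta sum in the controls and 55.2% and 56.4% in MBP. Tubb6 held 24.4% and 22.5% against 25.3% and 23.4%, Tubb2a 3.53% and 3.35% against 3.33% and 3.60%, and Tubb2b 3.42% and 3.54% against 3.57% and 3.42%. All 4 overlapped between the groups. Tubb4b held 9.90% and 10.2% untreated against 9.20% and 9.74% in MBP, lower in both MBP libraries. That gap was narrow, smaller than the difference between the libraries of either group. Among alpha isotypes, Tuba1c held 7.36% and 7.68% untreated against 9.62% and 8.10% in MBP, higher in both. The gap was smaller than the difference between the MBP libraries. Tuba1a, Tuba1b and Tuba4a overlapped.

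**Figure D5:**
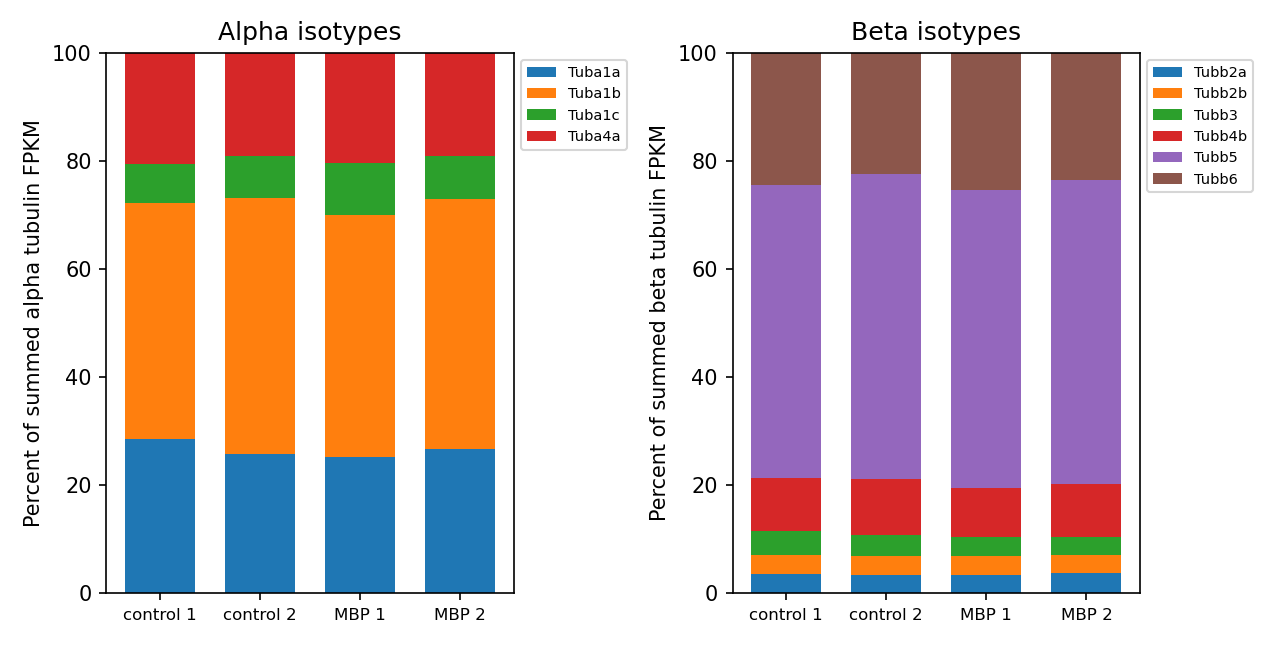
Share of each isotype in the summed FPKM of the alpha (left) and beta (right) isotypes, per library. Tubb5 and Tubb6 fill most of every beta bar, and the Tubb3 band is 4.49% and 3.89% in the controls against 3.40% and 3.38% in MBP.

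The tubulin family has other genes, of which 9 of 10 listed had a row and 4 passed the filter. Tubb4a, a beta isotype best known from brain and oligodendrocytes, had 12.2 and 10.5 FPKM untreated and 10.1 and 8.59 in MBP, or a log2 fold change of -0.26 (limma adjusted p = 0.517). Its groups did not overlap, but each differed within itself by 0.21. Tubg1, the gamma tubulin that starts new microtubules, stood at 25.8 and 25.0 FPKM in control libraries and at 24.6 and 23.8 in MBP libraries. Tube1 and Tubd1, the epsilon and delta tubulins of centrioles, had log2 fold changes of 0.16 and 0.039. None of the 4 passed limma's test. Tuba3a, Tuba3b, Tuba8, Tubal3 and Tubg2 were under 0.1 FPKM in every library.

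Genes that fold tubulin were given by 3 lists, and 0 of their 22 tested members passed limma's test. Of the 8 folding cofactors, 5 were negative, with a median log2 fold change of -0.040. Tbcb, which binds alpha tubulin, measured 14.8 and 16.7 FPKM without MBP and 12.4 and 12.3 with it, for a log2 fold change of -0.33 (limma adjusted p = 0.486), and -0.23 after the GC and length correction. Tbcc stood at -0.32 and Tbca, which holds beta tubulin, at -0.12. Of the 8 subunits of the chaperonin CCT, the chamber in which tubulin and actin fold, 7 were negative, with a median of -0.074 and a lowest value of -0.11 for Cct5. Prefoldin, which hands chains to CCT, had 3 of 6 negative, with Pfdn1 at -0.17.

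The factors of autoregulation had no common direction. Ttc5 had 4.75 and 5.05 FPKM untreated and 5.65 and 4.51 in MBP. Scaper, the adaptor that it recruits, had a log2 fold change of 0.15, and Cnot11, the subunit of the deadenylase it binds, one of -0.084. None of these 3 passed limma's test. The groups did not overlap for Scaper, higher in MBP, and Cnot11, lower in MBP, beside the 21.3% and 23.5% of all genes tested given above.

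Enzymes that modify tubulin, at the tail or elsewhere, had 16 of 18 members tested, 8 of them negative, with a median log2 fold change of -0.00093. Atat1, which acetylates alpha tubulin, stood at 3.78 and 3.51 FPKM in control libraries and at 4.12 and 4.301 in MBP libraries. Tpgs1, a subunit of the polyglutamylase complex, had 10.9 and 9.53 against 7.68 and 9.33, and Ttll12 had 18.3 and 20.05 against 17.9 and 17.4. Ttl, the ligase that puts back the last tyrosine, had 5.33 and 5.54 against 4.92 and 5.03. None of the 16 passed limma's test.

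Proteins that bind microtubules had 8 of 22 tested members negative and a median log2 fold change of 0.038. Map1a, a stabiliser, measured 17.4 and 16.6 FPKM without MBP and 15.0 and 15.3 with it. Kif2a, a kinesin that takes ends apart, had 21.02 and 20.6 against 22.4 and 22.97, and Mapre1, which follows growing ends, 25.3 and 26.3 against 28.3 and 27.9. Severing enzymes had 4 of 6 negative, with Katna1 at 0.11 and Fignl1 at -0.11. The gamma tubulin ring had 4 of 8 negative, with Mzt1 at 0.21, Tubgcp4 at 0.13 and Tubgcp5 at 0.12. None of these 36 genes passed limma's test.

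Dividing cells use much tubulin, and markers of division were read beside the isotypes. All 10 markers passed the filter and 7 were negative, with a median log2 fold change of -0.058. Their summed level was 559 to 577 FPKM in the controls and 549 to 551 in MBP, so the groups did not overlap. No share over all genes can be set beside a sum. By gene, 3 of 10 did not overlap with MBP lower, where 23.5% of all genes tested did. In 1 of 10 MBP was higher without overlap, beside 21.3% of all genes tested. Cdc20, which drives exit from mitosis, had 71.1 and 74.1 FPKM untreated and 62.2 and 64.2 in MBP. Aurkb stood at -0.15 and Plk1 at -0.092, while the groups overlapped for Mki67, at 128 and 99.0 against 121 and 107. Top2a, which untangles DNA, was higher in both MBP libraries, at 88.0 and 82.9 FPKM untreated and 88.7 and 88.2 in MBP, and Bub1, a spindle checkpoint kinase, had a log2 fold change of 0.086 with groups that overlapped. None of the 10 passed limma's test. The part of division in the tubulin values was not tested.

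The pattern of Tubb3 over the 4 libraries was set against 7071 protein-coding genes with a mean of at least 5 FPKM, as the root mean square distance between centred log2(FPKM + 1) values. The 5 nearest included Mrps34 and Rpl36, proteins of the mitochondrial and cytosolic ribosome, Ccdc85b, and Gadd45gip1 (distance 0.0514). The nearest of the other 9 isotypes was Tubb4b, in place 367, and Tuba1c was farthest, in place 6446. Tubb4a, a beta isotype outside this set, stood nearer than all 9, in place 110. With 4 libraries this is a description of these samples only.

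Promoters were searched as a description, from 250 bases before to 50 after the RefSeq start (GRCm38.p6), on both strands, and 8 of the 10 isotypes had an entry. The letters GGGCGG, the core of a GC box, occurred in 7 of these 8, all but Tuba1c, and in 35.7% of 32851 promoters. The 8 had a GC content of 53.7% (Tubb4b) to 72.7% (Tuba1b), and the 32851 were not matched for it. Whether GGGCGG is more frequent than in promoters of like GC content was not tested. CCAAT occurred in 5 of 8 (37.4% of all), with 5 copies for Tubb4b and 1 for Tubb3, and TATAAA in 2 of 8 (13.6%), Tubb2a and Tubb4b.

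The astrocyte label was checked against 10 markers, of which 4 passed the filter: Vim at 487 to 531 FPKM, Glul, S100b and Sox9. Gfap, Aldh1l1, Aqp4, Gja1 and Slc1a2 were under 0.3 FPKM in every library, and Slc1a3 was listed at 0 in 3 of 4. Depth, recovered from the step that 1 read makes in the deposited values, was 23571000 to 25907000 reads per library, rounded. The 10 isotypes rested on 380 reads (Tuba1c, control 1) to 35082 (Tubb5, control 2). Separate cultures for the libraries of a group are not mentioned in the labels, so the p-values reflect how far these samples spread, and that spread may be technical.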

How the data were processed

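Total RNA of C8-D1A cells was sequenced in 2 untreated and 2 treated libraries. A directional kit was used after removal of ribosomal RNA, per the labels' protocols. HISAT2, bcl2fastq and the GRCm38 build are listed in the submitters' processing notes. Counting program, annotation and use of strand: not given in the sources used here. FPKM values were deposited by the authors for 24169 genes, 1 column per library. Columns were matched by title, and replicates were numbered in accession order, which pairs nothing.

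Values were tested as log2(FPKM + 1), so folds of low genes are understated, for genes with at least 1 FPKM in at least 2 libraries (12403). The two-sided moderated test of limma 3.58.1 (R 4.3.3), with a spread trend, gave MBP minus control, with Benjamini-Hochberg adjustment over all genes and a threshold of 0.05. The fit was tested on simulated data, where it recovered nearly all genes with large changes but made more false calls than the adjusted threshold allows. Its adjusted p-values may therefore be too small. Changes as small as those of the isotypes were not simulated, so how often the fit would find them is not known from it. Protein sequences were not used here. GENCODE M21 held 24121 of the identifiers and gave exon lengths, GC content and coding sequences. FPKM times exon length gave whole reads within 0.05 for 93.8% to 94.0% of values under 1000 reads. For Tuba1a, Tuba1c and Tubb6, whose coordinates differ there, the length that gave whole reads in all 4 libraries was searched. Identity was computed with Biopython 1.88.

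The members, the 13 gene lists and the tests were chosen with earlier results of these data known. Named genes are the members, the other tested tubulins, up to 3 genes of each list with the lowest unadjusted p, and the 5 genes nearest to Tubb3; a few of these are not reported here. Others were named after their values were seen. Alternatives were a pseudocount of 0.1, a filter of 5 FPKM or none, quantile normalization, scaling to TPM or by median of ratios, a fit without the trend, protein-coding genes, correction for GC content and length by loess (span 0.5), limma-voom on recovered reads (mean of at least 10), and each library left out.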

Additional observations from a re-analysis of the deposited data

How the results depend on the processing

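The median log2 fold change of the 10 isotypes, Tubb3 included, was -0.12 and moved to -0.065 with the GC and length correction, a setting that removes the trend with base composition, and lay between -0.15 and -0.099 with 1 library left out. The number of negative isotypes stayed between 8 and 9 in all settings run. Tubb6 turned to 0.045 with quantile normalization and to 0.015 with the GC and length correction, and the cause was not tested. No other isotype changed sign in any setting, and none of the 9 isotypes tested was called in any. Genes called over the whole table were 0 in limma and 18 in limma-voom on recovered reads, and 0 to 1 with a library left out, the 1 being Snora69 without MBP 2. At an unadjusted p under 0.05 limma had 1201 genes, against 2269 when control 1 was left out, 947 for control 2, 593 for MBP 1 and 716 for MBP 2. The fold of the summed tubulins was 0.912, and 0.884 to 0.942 with a library left out. The alpha to beta ratio, MBP over control, was 1.03, and 0.991 to 1.07 with a library left out. The GC and length correction was not run on the summed fold or on this ratio, so their ranges do not include it. No paired analysis was possible because the replicate numbers were given in accession order and pair nothing. With 2 libraries a group, small differences such as those of most isotypes lie within the intervals, and depth limits Tuba1c most.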

Other observations

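Actins, the subunits of the other main cytoskeletal polymer, were read as a comparison. All 6 actin genes had a negative log2 fold change and groups that did not overlap, with MBP lower, where 23.5% of all genes tested had such groups. The median was -0.19, and 0 of 6 passed limma's test. In limma 3 had an unadjusted p under 0.05, where 5.87% of all genes tested had this and were lower in MBP. The GC and length correction took Actb from -0.15 to -0.10 and Actc1 from -0.12 to -0.053. Actb, the main cytoplasmic actin, stood at 1573 and 1712 FPKM in control libraries and at 1500.3 and 1453 in MBP libraries. Acta2, smooth muscle actin, had 570 and 606 against 541 and 516. Acta1, the actin of skeletal muscle, had 3.07 and 3.87 against 1.69 and 1.93, a log2 fold change of -0.67 (limma adjusted p = 0.457), and -0.56 after the GC and length correction. Actin coding sequences are nearly alike, so reads may have been split between these genes, and the values are uncertain.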
